A study of Mus musculus with 6 samples.

Results

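The genes described here are 28 genes of cholesterol synthesis and of its control by the SREBP transcription factors, listed by name for their place in the pathway. The list itself uses no measured value, but it was drawn up with earlier results of these data known. The table holds 31245 genes, of which 16653 passed a minimum mean normalized count of 10, and all 28 were among them. The lowest count of any of the 28 in any library was 175 (Lbr). The list leaves out some enzymes and receptors of the pathway. It holds 7 genes of the mevalonate steps, 3 of the squalene steps, 9 of the steps from lanosterol to cholesterol, 7 regulators and 2 genes of sterol handling.

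RNA came from mouse primary cortical neuronal cultures, dissected from pups on postnatal day 1, grown on coated coverslips in Neurobasal A with B27 and used at 12 to 13 days in vitro. 3 cultures received NGPF2 at 1.5 ng/ml for 2 h and 3 received the vehicle, PBS, for the same time. The labels state no genotype or strain and no step that removes glia. The submitters describe 3 pairs, each from an experiment of its own, and pair 1, 2 or 3 here means the cultures of both groups that share a replicate number. Total counts ran from 24311967 to 44788235 in the vehicle libraries and from 17478070 to 45193691 in the NGPF2 libraries. The titles of replicates 2 and 3 carry library names with a shared stem, which the titles of replicate 1 lack. Replicate 1 of both groups stood apart from the others across the genes, so each result is given over 3 pairs and within replicates 2 and 3 (2 libraries against 2). A normalized count is the count over the library's size factor. Each log2 difference was taken after 1 was added to it. Rose and fell below refer to an adjusted p under 0.05 (limma, Benjamini-Hochberg over 16653 genes) within replicates 2 and 3.

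Cells make cholesterol from acetyl-CoA. The mevalonate steps build isoprenoid units, which are joined to squalene, closed to lanosterol and trimmed to cholesterol. The genes of these steps are known targets of SREBP-2, encoded by Srebf2, while SREBP-1, encoded by Srebf1, is known chiefly for genes of fatty acid synthesis. Both factors are made as membrane proteins of the endoplasmic reticulum. When sterol is low, the escort Scap carries them to the Golgi, where the proteases encoded by Mbtps1 and Mbtps2 release the active part. When sterol is high, the Insig proteins hold Scap back. In the brain, cholesterol is made locally, in glia and in neurons.

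Within replicates 2 and 3, 17 of the 28 genes rose with NGPF2 and 1, Srebf1, fell. Of all 16653 genes, 9.77% rose and 11.3% fell in the same comparison. Among the 5813 genes whose mean reached 1000 normalized counts, a level that 23 of the 28 reached, 19.6% rose and 8.39% fell. The 17 comprised all 7 genes of the mevalonate steps, all 3 of the squalene steps, 6 of the 9 from lanosterol to cholesterol, and Stard4. The rises ran from 1.30-fold (Idi1) to 1.94-fold (Mvk). The summed normalized count of the 19 enzyme genes went in pair 2 from 85710 with vehicle to 122692 with NGPF2 and in pair 3 from 80758 to 125869. In replicate 1 this sum was 71922 with vehicle and 70758 with NGPF2. The count of 17 rested on 2 libraries per group: without vehicle replicate 2 or vehicle replicate 3, 0 of the 28 and 0 of all 16653 genes passed. It was 4 with no minimum count, where 337 of all 31245 genes rose, and 6 without a mean-variance trend, where 442 of 16653 rose (1627 with it).

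Over 3 pairs, 0 of the 28 genes passed, and 0% of the 16653 genes did (limma with the pair as a block). Unadjusted, 2166 of all genes had a p under 0.05, and the smallest adjusted p of any gene was 0.0713. The adjusted p of the 28 genes ran from 0.379 to 0.997. Without replicate 1, 16 of the 28 rose and 1 fell in this paired fit, and of all 16653 genes 1436 rose and 1839 fell. In pairs 1, 2 and 3 the 28 genes had a median log2 difference of -0.03, 0.49 and 0.52, while that of all 16653 genes was -0.003, -0.006 and 0. In pair 1, 9 of the 28 lay above 0, against 22 in pair 2 and 20 in pair 3. Among the 5813 genes with high counts, the median was -0.0009, 0.118 and 0.0939 in pairs 1, 2 and 3.

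**Figure D1:**
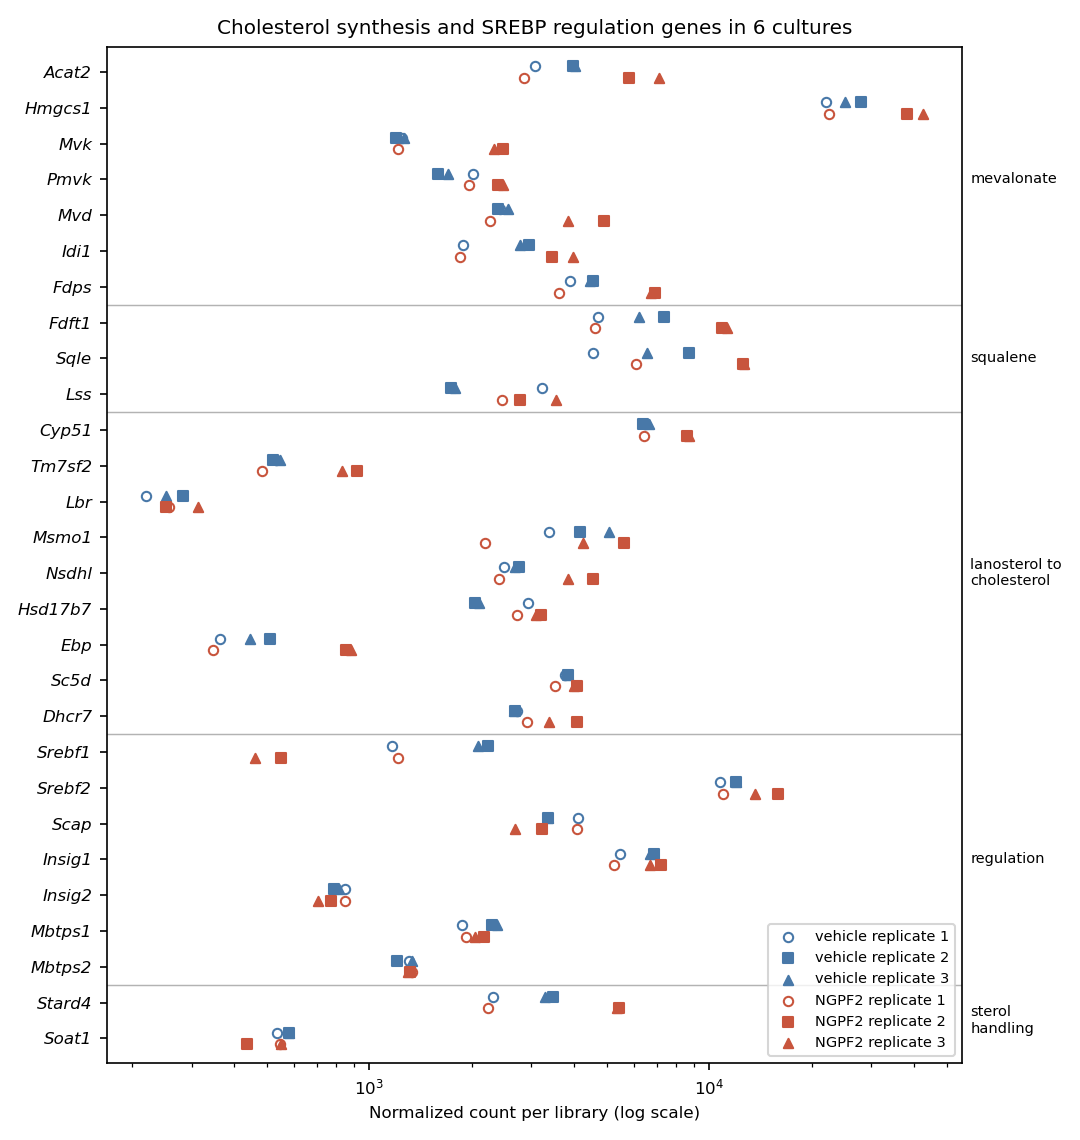
Normalized count (log scale) of each of the 28 genes in every library, vehicle in blue and NGPF2 in red, with circles, squares and triangles for replicates 1, 2 and 3. Most enzyme genes show red squares and triangles to the right of all blue symbols, while the 2 circles lie close together; Srebf1 shows the opposite order.

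The mevalonate steps were described first. Acat2 encodes a thiolase that joins acetyl-CoA units, and its level was 3078, 3971 and 4031 normalized counts in vehicle replicates 1, 2 and 3. With NGPF2 it was 2850.4, 5798 and 7116 in the same order. Hmgcs1, the synthase of the next step, stood at 22017, 28047 and 25146 with vehicle and at 22527, 38271 and 42564 with NGPF2. The NGPF2 libraries of replicates 2 and 3 were the highest for both genes, and replicate 1 with NGPF2 lay among or below the vehicle libraries. Acat2 rose 1.61-fold (log2 0.68, SE 0.11, adjusted p = 0.016, limma) and Hmgcs1 1.52-fold (log2 0.60, SE 0.09, adjusted p = 0.0132, limma). Per kilobase of exon, Hmgcs1 had the highest vehicle level of the 28, at 5457 normalized counts per kb (mean of 3), which is percentile 99.0 of all genes kept.

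Mvk, the kinase that phosphorylates mevalonate, had 1251, 1201 and 1268 normalized counts with vehicle and 1213, 2469 and 2333 with NGPF2. The vehicle libraries thus lay close together in all 3 experiments, and NGPF2 replicates 2 and 3 stood apart from the other 4. Mvk (ENSMUSG00000041939, chr5:114444269-114460591 on mm10, GENCODE M21, as for the other genes placed) rose 1.94-fold, the most of the 17 (log2 0.96, SE 0.08, adjusted p = 0.00317, limma). Pmvk, the kinase that follows it, had 2014, 1598 and 1708 with vehicle and 1969, 2398 and 2475 with NGPF2. Mvd, which decarboxylates the product to isopentenyl diphosphate, had 2427, 2389 and 2555 with vehicle and 2266, 4905 and 3841 with NGPF2. For both, NGPF2 replicates 2 and 3 were the 2 highest libraries. Pmvk rose 1.47-fold (adjusted p = 0.0102, limma) and Mvd 1.76-fold (adjusted p = 0.0157, limma).

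Idi1, the isomerase of the isoprenoid unit, had 1887, 2941 and 2768 normalized counts with vehicle and 1852, 3454 and 3983 with NGPF2. Its rise was the smallest of the 17, 1.30-fold (log2 0.38, SE 0.09, adjusted p = 0.0471, limma), and the call was lost in 8 alternatives given in the closing section. Fdps, which makes farnesyl diphosphate, had 3885, 4561 and 4461 with vehicle and 3615, 6946 and 6761 with NGPF2. Its rises in pairs 2 and 3 were nearly equal, at 0.61 and 0.60 on the log2 scale, and the fold was 1.52 (adjusted p = 0.00545, limma). In pair 1 the 7 mevalonate genes lay between -0.11 (Acat2) and 0.03 (Hmgcs1) on the log2 scale. In the annotation, exons of Hmgcs1 and Idi1 overlap those of Gm48342 and Gm48574 on the opposite strand. Exons of Fdps overlap those of Gm43738 on the same strand, where strand would not separate the reads. No source used here gives the strand setting of the counting, so that reads of partners on the opposite strand cannot be told apart either.

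Of the squalene steps, Fdft1 joins farnesyl units to squalene. Its level was 4707, 7345 and 6226 normalized counts with vehicle and 4618, 10886 and 11291 with NGPF2. Sqle, which adds oxygen to squalene and is a known control point of the pathway, had 4551, 8721 and 6559 with vehicle and 6109, 12610.4 and 12651 with NGPF2. Lss, which closes the ring to lanosterol, had 3226, 1738 and 1789 with vehicle and 2456, 2779.6 and 3534 with NGPF2. Fdft1 rose 1.64-fold (adjusted p = 0.0101), Sqle 1.67-fold (adjusted p = 0.0247) and Lss 1.78-fold (adjusted p = 0.0139, limma for all 3). Sqle lay higher with NGPF2 in all 3 pairs, by 0.42, 0.53 and 0.95 on the log2 scale, and its mean over 3 pairs was 0.63 (SE 0.13, unadjusted p = 0.0035, adjusted p = 0.379, limma). Sqle lies at chr15:59315077-59331192. Its groups still overlapped, since NGPF2 replicate 1 lay below vehicle replicates 2 and 3. The Sqle call within replicates 2 and 3 was lost when any 1 of the 4 libraries was left out. Lss went the other way in pair 1, at -0.39, and its highest vehicle library was replicate 1. Exons of Fdft1 overlap those of Ctsb on the opposite strand, and exons of Lss those of 4930483K19Rik.

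From lanosterol onward, Cyp51 removes a methyl group, and its level was 6492, 6388 and 6649 normalized counts with vehicle and 6427, 8603 and 8742 with NGPF2. Tm7sf2, a sterol reductase, had 531, 522 and 546 with vehicle and 485, 923 and 833 with NGPF2. Both had vehicle levels that varied little between the experiments, and NGPF2 replicates 2 and 3 lay above all other libraries. Nsdhl, which takes part in removing further methyl groups, had 2483, 2754 and 2679 with vehicle and 2406, 4566 and 3834 with NGPF2. Hsd17b7, the ketosteroid reductase of that step, had 2931, 2046 and 2098 with vehicle and 2728, 3209 and 3087 with NGPF2. For Hsd17b7 both replicate 1 libraries lay between the vehicle and NGPF2 libraries of replicates 2 and 3. The rises were 1.33-fold for Cyp51, 1.64-fold for Tm7sf2, 1.54-fold for Nsdhl and 1.52-fold for Hsd17b7 (adjusted p = 0.0131, 0.0116, 0.0163 and 0.00696, limma).

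Ebp, the sterol isomerase, had 364, 511 and 446 normalized counts with vehicle and 348, 851 and 881 with NGPF2, a rise of 1.81-fold (log2 0.86, SE 0.11, adjusted p = 0.00919, limma). Dhcr7, which reduces 7-dehydrocholesterol to cholesterol, had 2717, 2688 and 2665 with vehicle and 2917, 4086 and 3387 with NGPF2. Dhcr7 was the only one of the 28 whose 3 vehicle and 3 NGPF2 libraries did not overlap, as was so for 10% of the 16653 genes. It rose 1.39-fold within replicates 2 and 3 (adjusted p = 0.0361, limma), and over 3 pairs the log2 difference was 0.35 (SE 0.12, adjusted p = 0.379, limma).

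3 of the 9 genes of these last steps did not pass. Lbr, a lamin B receptor that is also a sterol reductase with the same activity as Tm7sf2, had 219.9, 282 and 253 normalized counts with vehicle and 257, 252 and 314 with NGPF2. Msmo1, the methylsterol oxidase, had 3387, 4169 and 5065 with vehicle and 2189, 5607 and 4248 with NGPF2. Its pairs went in different directions, at -0.63, 0.43 and -0.25 on the log2 scale. Sc5d, the desaturase before Dhcr7, had 3754, 3836 and 3845 with vehicle and 3525, 4077 and 3995 with NGPF2, with a log2 difference of 0.07 (SE 0.06, adjusted p = 0.458, limma) within replicates 2 and 3. The sign of the difference for these 3 genes turned under other scalings or without 1 library. Exons of Cyp51, Tm7sf2 and Lbr overlap those of other genes (Akap9, Vps51, and Dnah14 with Gm26004).

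**Figure D2:**
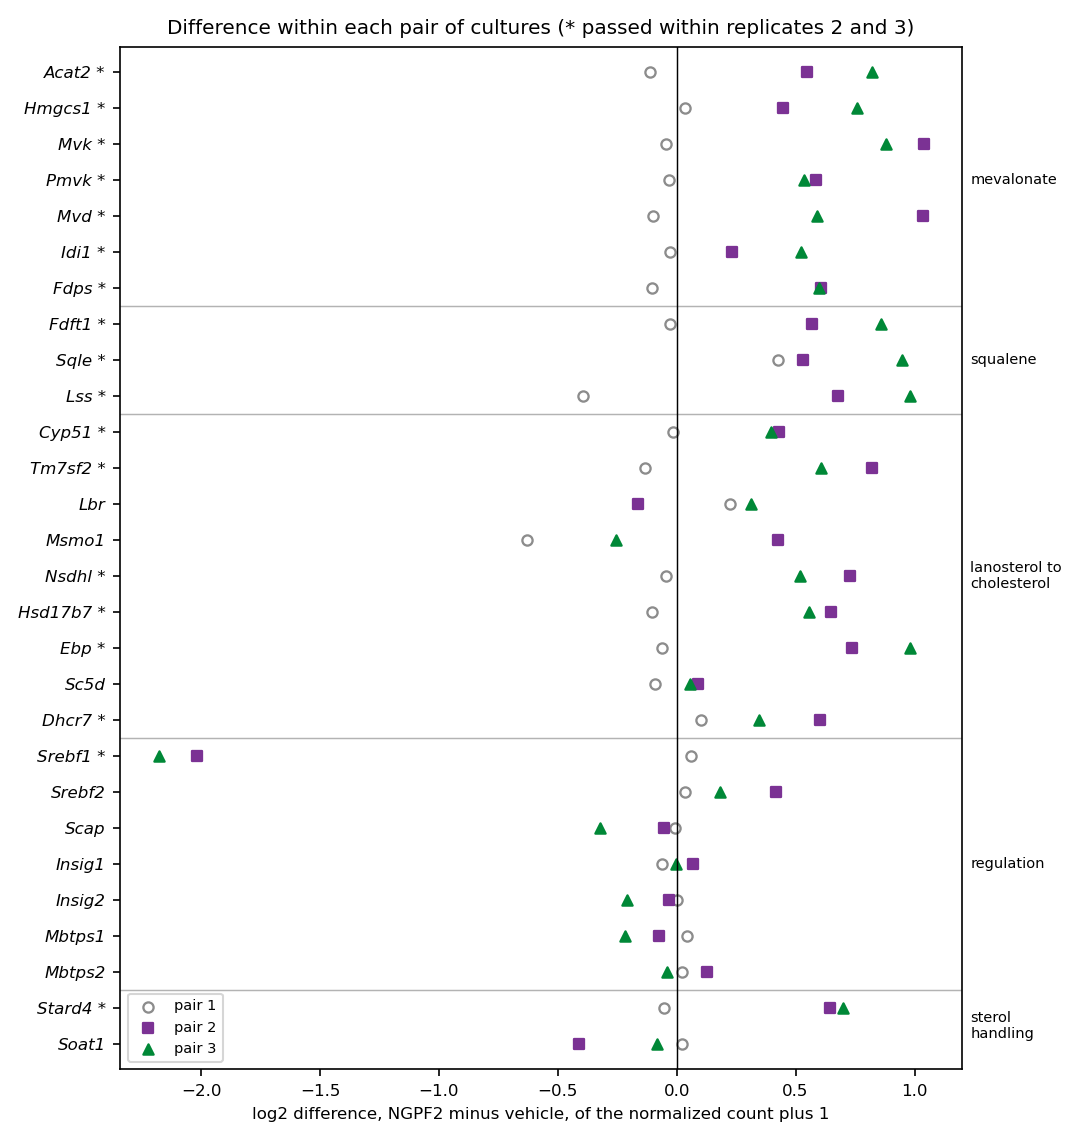
Log2 difference, NGPF2 minus vehicle, in pair 1 (open circles), pair 2 (squares) and pair 3 (triangles) for each of the 28 genes, with an asterisk where the gene passed within replicates 2 and 3. The circles stay near 0 except for Sqle (0.42), Lss (-0.39) and Msmo1 (-0.63), and Srebf1 lies at -2.02 and -2.18 in pairs 2 and 3.

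Promoter windows, from 250 bases before to 50 after the annotated start, were read from RefSeq on GRCm38.p6 for 24 of the 28 genes. Fdps, Fdft1, Sqle and Stard4 had no entry. The windows were searched on both strands for the core of the SREBP site (TCACNCCAC), the NF-Y box (CCAAT) and the Sp1 box (GGGCGG), 3 factors known to act together at sterol-regulated genes. The SREBP core was in 1 of the 24 genes, Hmgcs1, and in 1.44% of the 27025 genes of the RefSeq table. The NF-Y box was in 20 of the 24 and in 41.1% of all genes. The Sp1 box was in 22 of the 24 and in 38.2% of all genes. Among the 11692 genes that were also kept here, the shares were 1.37%, 42.7% and 67.1% for the 3 motifs in the same order. These matches describe letters in a window and are not evidence of binding. A missing match likewise does not show that a gene lacks a site, since only exact letters within the window were searched.

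4 windows of genes that passed are printed, with capitals for matches to the 3 motifs on either strand. The window of Hmgcs1 is at chr13:119690101-119690400, plus strand. It is shown because it holds the SREBP core, from -137 to -129 where the annotated start is +1, with 4 NF-Y and 3 Sp1 boxes. The window of Mvk, the enzyme gene with the largest rise, is at chr5:114444019-114444318, plus strand, and holds 5 NF-Y and 2 Sp1 boxes. The window of Nsdhl is at chrX:72918271-72918570, plus strand, with 4 NF-Y boxes and 1 Sp1 box. The starts used are those of RefSeq. In GENCODE M21, Hmgcs1 begins at chr13:119690379 and Nsdhl at chrX:72918557, after these starts but within the windows. The printed windows do not represent all members with a window: that of Acat2, described first, holds 0 NF-Y boxes and 1 Sp1 box. Srebf1, which fell, has 3 windows in the table, and the one printed, at chr11:60210422-60210721, minus strand, holds 1 NF-Y and 2 Sp1 boxes. Of the windows not printed, 1 holds 1 NF-Y and 0 Sp1 boxes and 1 holds 0 NF-Y and 3 Sp1 boxes. The table gives 1 value per gene, so that the starts of Srebf1 were not told apart. The window of Insig1, at chr5:28071162-28071461, plus strand, is printed as that of a known SREBP target that did not pass here. It holds 1 NF-Y and 3 Sp1 boxes.
Hmgcs1: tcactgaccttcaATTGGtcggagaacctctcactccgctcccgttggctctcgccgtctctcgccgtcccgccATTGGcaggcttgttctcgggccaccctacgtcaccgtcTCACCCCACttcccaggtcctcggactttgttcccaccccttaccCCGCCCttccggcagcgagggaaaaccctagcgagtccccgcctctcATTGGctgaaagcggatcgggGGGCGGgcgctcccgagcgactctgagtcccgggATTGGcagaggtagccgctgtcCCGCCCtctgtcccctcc
Mvk: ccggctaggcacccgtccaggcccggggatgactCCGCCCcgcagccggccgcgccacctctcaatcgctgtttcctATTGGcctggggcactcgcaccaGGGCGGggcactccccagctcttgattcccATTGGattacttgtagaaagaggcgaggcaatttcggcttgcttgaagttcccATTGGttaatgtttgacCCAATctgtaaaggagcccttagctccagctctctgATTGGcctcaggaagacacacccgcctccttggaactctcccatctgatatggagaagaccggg
Nsdhl: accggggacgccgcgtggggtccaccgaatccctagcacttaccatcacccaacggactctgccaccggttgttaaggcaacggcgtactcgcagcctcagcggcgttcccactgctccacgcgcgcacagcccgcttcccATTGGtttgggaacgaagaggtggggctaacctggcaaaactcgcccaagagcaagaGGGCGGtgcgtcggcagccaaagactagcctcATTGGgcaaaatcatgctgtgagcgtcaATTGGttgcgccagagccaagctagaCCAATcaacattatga
Srebf1: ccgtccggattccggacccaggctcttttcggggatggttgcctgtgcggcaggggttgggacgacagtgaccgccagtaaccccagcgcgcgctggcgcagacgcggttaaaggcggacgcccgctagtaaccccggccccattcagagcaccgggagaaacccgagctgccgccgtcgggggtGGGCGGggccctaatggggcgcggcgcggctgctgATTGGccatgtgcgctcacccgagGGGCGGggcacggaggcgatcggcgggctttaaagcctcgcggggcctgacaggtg
Insig1: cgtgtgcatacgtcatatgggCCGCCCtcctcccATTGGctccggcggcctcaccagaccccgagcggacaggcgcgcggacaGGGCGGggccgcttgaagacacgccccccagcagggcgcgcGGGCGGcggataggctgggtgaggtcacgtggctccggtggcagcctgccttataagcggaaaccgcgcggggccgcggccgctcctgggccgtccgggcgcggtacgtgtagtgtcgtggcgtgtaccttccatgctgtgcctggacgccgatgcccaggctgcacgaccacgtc

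Of the 7 regulators, 0 passed as higher within replicates 2 and 3, where 9.77% of all genes did, and 1, Srebf1, fell. The difference between regulators and enzymes was not tested. Srebf1 had 1168, 2228 and 2092 normalized counts with vehicle and 1216, 549.9 and 461 with NGPF2. The NGPF2 libraries of replicates 2 and 3 were the lowest, those of their vehicle partners the highest, and both replicate 1 libraries lay between them. The fall was 4.28-fold (log2 -2.10, SE 0.12, adjusted p = 0.00154, limma), the largest change among the 28 genes. Over 3 pairs the log2 difference was -1.38 (SE 0.45, adjusted p = 0.379, limma). Srebf1 lies at chr11:60199089-60222581 on the minus strand. Its exons overlap those of Rai1 and Mir6922.

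Srebf2, the other factor gene, had 10739.9, 11953 and 12009.5 normalized counts with vehicle and 11007, 15962 and 13626 with NGPF2. It lay higher with NGPF2 in all 3 pairs, by 0.04, 0.42 and 0.18 on the log2 scale, and did not pass (log2 0.30, SE 0.09, adjusted p = 0.0785, limma, within replicates 2 and 3). It passed when NGPF2 replicate 3 was left out. Per kilobase of exon, Srebf2 exceeded Srebf1 in every library, by a ratio of 7.21, 4.21 and 4.50 with vehicle and of 7.10, 22.8 and 23.2 with NGPF2. The ratio in NGPF2 replicates 2 and 3 was thus above that of the other 4 libraries.

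Insig1 had 5463, 6882 and 6710.2 normalized counts with vehicle and 5239, 7213 and 6691 with NGPF2, and its pairs lay between -0.06 and 0.07 on the log2 scale. Within replicates 2 and 3 its log2 difference was 0.03 (SE 0.07, adjusted p = 0.772, limma), and it turned to -0.14 under quantile scaling. Insig1 is a known SREBP target, and its vehicle level per kb, 2054 normalized counts per kb, was the highest of the 28 after Hmgcs1. Insig2, its relative, had 847, 787 and 817 with vehicle and 847, 769.9 and 707 with NGPF2. Scap had 4111, 3344 and 3354 with vehicle and 4095, 3227 and 2679.6 with NGPF2. None of these 3 passed, but Scap passed as lower when NGPF2 replicate 2 was left out. Mbtps1, the site-1 protease gene, had 1867, 2288 and 2375 with vehicle and 1922, 2169.9 and 2042 with NGPF2. Mbtps2, the site-2 protease gene, had 1309.7, 1203 and 1333 with vehicle and 1331, 1314 and 1296 with NGPF2. The log2 differences within replicates 2 and 3 were -0.12 for Insig2, -0.19 for Scap, -0.15 for Mbtps1 and 0.04 for Mbtps2, with SE between 0.07 and 0.10, and the groups overlapped over all 6 libraries for each. Exons of Scap and Mbtps2 overlap those of 5830462I19Rik and Yy2.

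**Figure D3:**
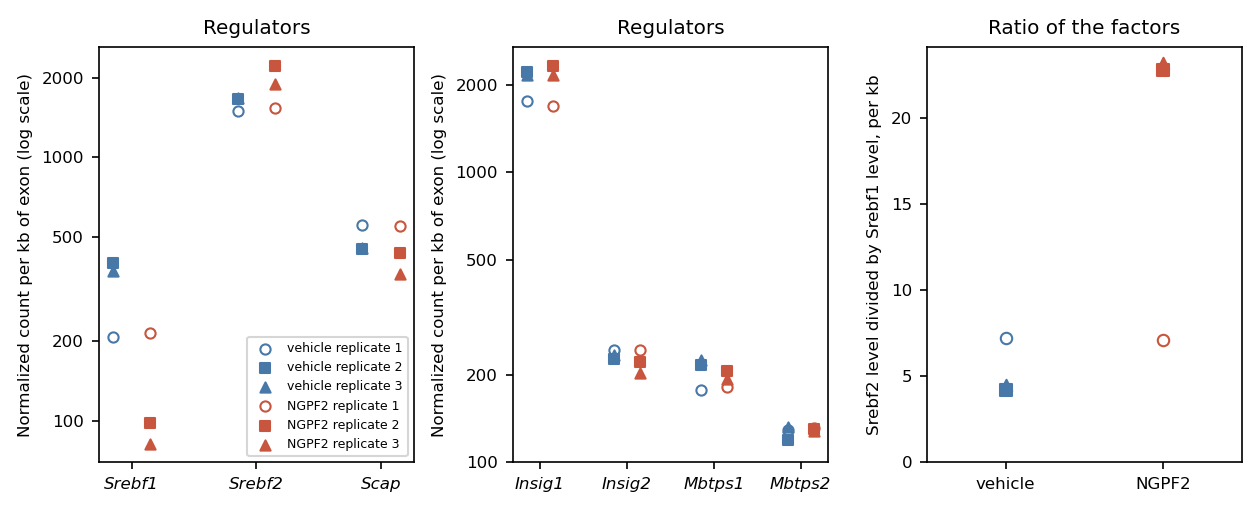
Left and middle, normalized count per kb of exon (log scale) of the 7 regulators in every library, vehicle in blue and NGPF2 in red. Right, the level of Srebf2 divided by that of Srebf1, per kb, which was 22.8 and 23.2 in NGPF2 replicates 2 and 3 and between 4.21 and 7.21 in the other 4 libraries.

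The 2 genes of sterol handling differed. Stard4, a carrier of cholesterol in the cytosol and a known SREBP-2 target, had 2312, 3481 and 3288 normalized counts with vehicle and 2228, 5441 and 5336 with NGPF2. It rose 1.59-fold (log2 0.67, SE 0.07, adjusted p = 0.00517, limma), and NGPF2 replicates 2 and 3 lay above the other 4 libraries. Soat1, which esterifies cholesterol for storage, had 536, 581 and 582 with vehicle and 545, 438 and 549 with NGPF2. It did not pass (log2 -0.25, SE 0.14, adjusted p = 0.268, limma).

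Whether the NGPF2 difference itself was unlike in replicates 2 and 3 and in replicate 1 was tested as an interaction. 3 of the 28 genes passed. Mvk and Fdps had a larger difference in replicates 2 and 3, by 1.00 (SE 0.14, adjusted p = 0.0391, limma) and 0.71 (SE 0.11, adjusted p = 0.0481, limma) on the log2 scale. Srebf1 had a lower one, by -2.16 (SE 0.20, adjusted p = 0.0195, limma). Of all genes, 0.721% passed as higher and 1.77% as lower in this test. Next in order were Stard4 (0.72, adjusted p = 0.0548), Hsd17b7 (0.71, adjusted p = 0.0563) and Lss (adjusted p = 0.0654), which did not pass (limma). For Sqle the difference between the series was 0.31 (SE 0.25, adjusted p = 0.534, limma). Replicate 1 has 1 library per group, whose spread was assumed to be that of the others. Without vehicle replicate 2 or vehicle replicate 3, 0 of the 28 passed, and without NGPF2 replicate 2 or NGPF2 replicate 3, Srebf1 passed while Mvk and Fdps did not.

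The vehicle levels also differed between replicates 2 and 3 and replicate 1, with 1 library against 2, so that library series and culture cannot be told apart. The spread of the lone library was taken to be that of the replicated groups. Without a mean-variance trend 0 of the 28 passed, while of all 16653 genes 678 passed as higher and 554 as lower. In vehicle, 5 of the 28 were higher in replicates 2 and 3, where 10.5% of all genes were, and 2 were lower, where 9.42% were. Srebf1 was 1.85-fold higher (adjusted p = 0.0162), Sqle 1.66-fold (adjusted p = 0.0438), Idi1 1.51-fold (adjusted p = 0.0269), Stard4 1.46-fold (adjusted p = 0.0148) and Fdft1 1.44-fold (adjusted p = 0.0386, limma for all). Lss was 1.83-fold lower (adjusted p = 0.0216) and Hsd17b7 1.41-fold lower (adjusted p = 0.018, limma). Several other enzyme genes had vehicle levels that lay close together in both, among them Mvk, Mvd, Cyp51, Tm7sf2 and Dhcr7, with log2 differences between -0.02 and 0.03. These calls were lost without vehicle replicate 2 or vehicle replicate 3.

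Genes next to the pathway were taken from 5 further lists. Of 16 genes of fatty acid synthesis, the process known for its control by SREBP-1, 3 rose and 7 fell. Of all 16653 genes, 9.77% rose and 11.3% fell, and of the 5813 with a mean of at least 1000, 19.6% and 8.39% did. The list had a median log2 difference of 0.01, -0.39 and -0.33 in pairs 1, 2 and 3. Thrsp, which promotes fatty acid synthesis, had 368, 579 and 562 normalized counts with vehicle and 406, 86.1 and 70.0 with NGPF2. Scd1, a desaturase, had 6213, 7978 and 7248 with vehicle and 6134, 2660.1 and 2557 with NGPF2. These are falls of 7.26-fold and 2.91-fold (adjusted p = 0.00167 and 0.00129, limma), with both replicate 1 libraries close to each other. Elovl5, an elongase, fell 2.40-fold and Scd2, another desaturase, 1.69-fold. The 3 that rose, named after their values were seen, were Acaca (1.41-fold), Acly (1.41-fold) and Acss2 (1.33-fold), which make malonyl-CoA and acetyl-CoA. These 3 had a mean above 1000, where 19.6% of genes rose. The list thus held genes that rose and genes that fell, and whether either kind follows the cholesterol enzymes or Srebf1 was not tested.

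The counts of the next 4 lists stand beside 9.77% of all 16653 genes that rose and 11.3% that fell. Of 14 genes on other branches from mevalonate products, such as ubiquinone synthesis and prenylation, 0 rose and 2 fell. These were Pggt1b, a subunit of a geranylgeranyl transferase (1.49-fold), and Zmpste24, a protease of prenylated lamin A (1.30-fold). Of 20 genes of the control of SREBP processing and sterol-driven degradation in the endoplasmic reticulum, 2 rose and 1 fell. Rnf145, a ubiquitin ligase that acts on Scap, rose 1.35-fold, the segregase gene Vcp rose 1.24-fold and Erlin2 fell 1.59-fold. Of 20 genes of intracellular sterol transport, 2 rose and 3 fell. Osbpl1a, an oxysterol-binding protein, rose 1.88-fold, while the lysosomal cholesterol exporters Npc1 and Npc2 fell 2.26-fold and 1.47-fold and Scp2 fell 1.66-fold. Of 12 genes kept of sterol turnover and LXR signalling, 2 rose and 2 fell. Mylip rose 1.35-fold and Nceh1 1.26-fold, while Abcg1 fell 1.26-fold and the oxysterol hydroxylase Cyp7b1 3.92-fold. The median differences of these 4 lists lay between -0.17 and 0.12 in every pair.

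**Figure D4:**
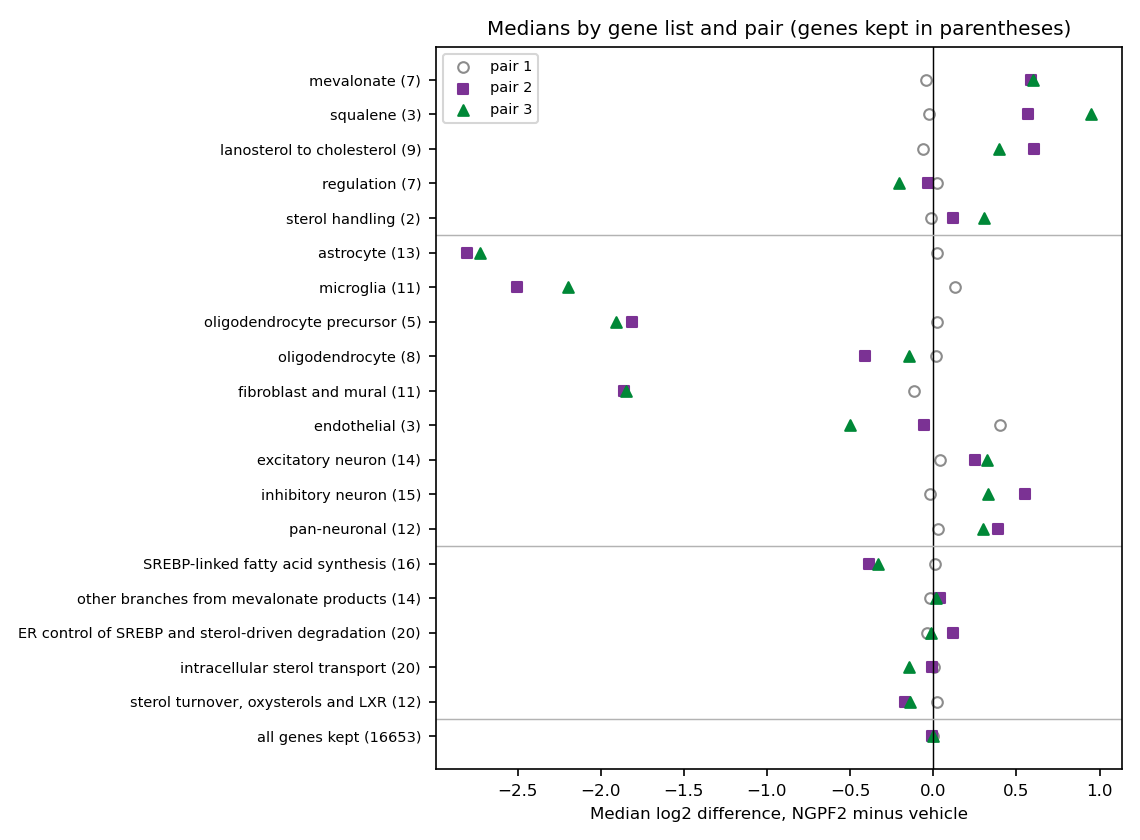
Median log2 difference, NGPF2 minus vehicle, in pair 1 (open circles), pair 2 (squares) and pair 3 (triangles) for the pathway steps, the cell type lists, the neighbouring pathways and all 16653 genes kept. Pathway steps other than regulation lie to the right of 0 in pairs 2 and 3 and astrocyte markers near -2.80 and -2.73, while most lists in pair 1 lie near 0.

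Markers of other cell types moved with these results. Of all 16653 genes, 9.77% rose and 11.3% fell within replicates 2 and 3. All 13 astrocyte markers kept of 14 fell within replicates 2 and 3, with a median log2 difference of 0.02, -2.80 and -2.73 in pairs 1, 2 and 3. Their summed normalized count ran from 38097 to 102087 with vehicle and from 21359 to 41796 with NGPF2, and Gjb6 was at 0 in at least 1 library. Glul, which makes glutamine in astrocytes, fell 4.44-fold, and Slc1a2, a glutamate transporter, 1.75-fold. Of 11 microglia markers kept, 8 fell, with sums from 607 to 1679 with vehicle and from 87.3 to 1743 with NGPF2. Aif1, Cx3cr1, Itgam and Tmem119 were at 0 in at least 1 library. Of 5 markers of oligodendrocyte precursors kept, 3 fell, among them Olig1 (5.52-fold) and Olig2 (6.06-fold), with sums from 3509 to 7285 with vehicle and from 1254 to 3616 with NGPF2. Gpr17 and Neu4 were at 0 in at least 1 library.

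The same shares of all genes, 9.77% rising and 11.3% falling, apply to the lists that follow. Of 8 oligodendrocyte markers kept, 2 fell, and the sums ran from 1848 to 3356 with vehicle and from 1758 to 2130.4 with NGPF2. Of 11 fibroblast and mural markers, 5 fell and 1 rose, and the sums ran from 725 to 4473 with vehicle and from 441 to 4082 with NGPF2. Of 3 endothelial markers kept, 0 passed. Pan-neuronal markers check only the neuronal part of the label of the cultures, not its cortical part. All 12 were kept, with sums from 218795 to 232209 with vehicle and from 218875 to 293628 with NGPF2, and 6 of them rose. The 14 excitatory markers held 6 that rose and 4 that fell, the 15 inhibitory ones 9 and 3. Sums of the inhibitory markers were 204677 in vehicle replicate 1 and 69503 and 72112 in vehicle replicates 2 and 3, while those of the excitatory markers were 41526, 119420 and 118403. In bulk RNA, fewer cells of a type and less RNA per cell cannot be told apart. The part of these shifts in the results for the 28 genes was not tested.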

How the data were processed

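Poly(A) RNA from 6 cultures was fragmented and sequenced, per the labels' protocols. STAR 2.5, DESeq 1.22.1, FastQC, Cuffnorm and mm10 appear in the submitters' processing notes, listed here with no step assigned. Which annotation and counter were used, and whether strand was counted, is not given in the sources used here. The values the authors deposited are log2 of a normalized count plus 1, although the table is named as FPKM: 100% of the values gave whole counts (tolerance 0.01 of a count) after 1 was subtracted and the linear value multiplied by the median-of-ratios size factor. Columns of replicates 2 and 3 carry the library names of the titles, and the column left over in either group was assigned to its replicate 1 by elimination. A symbol was found for 31185 of 31245 identifiers.

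Genes were kept from a mean of 10 normalized counts upward. limma 3.58.1 (R 4.3.3, eBayes with a trend on the mean, 2-sided tests, Benjamini-Hochberg over 16653 genes, threshold 0.05) was fitted over 3 pairs with the replicate number as a block, within replicates 2 and 3 without a block, and over all 6 libraries with library series, treatment and their interaction. The block follows the submitters' statement of pairs. As a check of the pairing, r across genes of the deviations from each group's mean was 0.594, 0.299 and 0.333 for replicates 1, 2 and 3. It was 0.342 for vehicle 2 with NGPF2 3 and 0.320 for vehicle 3 with NGPF2 2, and -0.0146 for same-numbered libraries within replicates 2 and 3 alone, so that the check does not separate the pairs of replicates 2 and 3. P-values measure the spread between these cultures.

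The members, lists and comparisons were chosen with earlier results of these data known. All 28 genes are named. Of each further pathway list up to 4 genes of smallest p within replicates 2 and 3, and of each cell type list the 2 of highest mean, could be named. Marchf6 had no matching symbol. Exon lengths and overlaps come from GENCODE M21 on mm10, and levels per kb divide by the union of exons. Alternatives covered the pseudocount, the minimum count, the scaling, the trend, voom on the whole counts, the block and leaving out libraries. Figures were drawn with matplotlib 3.10.9.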

Additional observations from a re-analysis of the deposited data

Results flagged for a closer look

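The difference between NGPF2 and vehicle was itself unlike in replicates 2 and 3 and in replicate 1 for 3 of the 28 genes (limma, interaction of library series and treatment). For Mvk it was larger in replicates 2 and 3 by 1.00 on the log2 scale, with pairs at -0.04, 1.04 and 0.88. For Fdps it was larger by 0.71, with pairs at -0.10, 0.61 and 0.60. For Srebf1 the value was -2.16, with pairs at 0.06, -2.02 and -2.18. Of all genes, 0.721% passed this test as higher and 1.77% as lower. The calls of Mvk and Fdps were lost when any 1 library of replicates 2 and 3 was left out. That of Srebf1 was lost without vehicle replicate 2 or vehicle replicate 3. The summed astrocyte markers were 38097 and 41796 in vehicle and NGPF2 replicate 1, and 102087 and 24452 in vehicle and NGPF2 replicate 2. Their part in these 3 results was not tested.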

How the results depend on the processing

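Within replicates 2 and 3, 15 to 17 genes rose and 1 fell with a pseudocount of 8, a mean of at least 50, quantile scaling, library totals or voom; 4 rose with no filter and 6 with no mean-variance trend. With the replicate block 16 rose and 1 fell, Idi1 being lost. Leaving out 1 library gave 0 to 16 rising and 0 to 2 falling. Idi1 was also lost with no filter, no trend, library totals, quantile scaling and without vehicle replicate 2, vehicle replicate 3 or NGPF2 replicate 3. Over 3 pairs, 0 passed in all alternatives, no replicate block included, except without replicate 1, where 16 rose and 1 fell. That fit is the same as the one within replicates 2 and 3 with the replicate block, so it is not a further check.

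For the difference between the series, 2 genes passed as higher and 1 as lower. As higher passed 4 with pseudocount 8 or no filter, 5 with a mean of at least 50, 1 with library totals or quantile scaling, 9 with voom and 0 with no trend, where 0 also passed as lower. Over all genes, 120 of 16653 passed as higher in the main fit, 485 with voom and 1922 of 31245 with no filter. Leaving out 1 library gave 0 to 2 higher and 0 to 1 lower. Of vehicle levels, 5 passed as higher and 2 as lower in replicates 2 and 3. With no filter 1 passed each way, where 1308 of all 31245 genes passed as higher and 3028 as lower. With no trend 0 passed, where 678 of 16653 genes passed as higher and 554 as lower (1753 and 1569 in the main fit). Leaving out 1 library gave 0 to 5 higher and 0 to 3 lower. The cause of these moves was not tested.

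Library totals moved the median of all genes within replicates 2 and 3 to -0.128, and the split from 1627 rising and 1884 falling to 982 and 2664. Under that scaling, differences that did not pass turned sign for Lbr (-0.0513), Msmo1 (-0.0402), Sc5d (-0.0555), Insig1 (-0.0952) and Mbtps2 (-0.084). Under quantile scaling they turned for Msmo1 (-0.0252), Sc5d (-0.0201) and Insig1 (-0.14). With 1 library left out, the value ran from -0.0824 to 0.233 for Lbr, -0.113 to 0.287 for Msmo1, -0.0224 to 0.086 for Insig1 and -0.0313 to 0.117 for Mbtps2.

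No member had a count below 175 in any library, and the comparison within replicates 2 and 3 had 2 libraries per group.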

Other observations

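Replicate 1 gives values that the tests over replicates 2 and 3 do not use. Among the 5813 genes whose mean reached 1000 normalized counts, the 5th and 95th percentiles of the log2 difference in pair 1 were -0.18 and 0.175. Of the 23 of the 28 genes with such a mean, Sqle (0.42) lay above that upper bound, and Lss (-0.39) and Msmo1 (-0.63) below the lower one. By definition, 5% of the 5813 genes lie beyond each bound, so that a few genes out of 23 are expected there. Sqle and Lss, which encode consecutive steps, went in opposite directions in that pair. Pair 1 holds 1 library per group, so these values have no replicate check.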
